A study of Homo sapiens with 2 samples.

Results

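Of 60099 CHD4 peaks on chromosomes 1 to 22 and X in a human melanoma line, 1691 (2.81%, Wilson 95% interval 2.68% to 2.95%) overlapped the 1000 bp on either side of the start of a long non-coding RNA (lncRNA) gene and avoided the same window around every transcript start of a protein-coding gene. The 1691 peaks are called lncRNA-only peaks here. The lncRNA starts were taken from gene records, and the coding ones from transcript records, of GENCODE release 44 as lifted to GRCh37 (hg19). This gives 18592 lncRNA gene starts and 170199 transcripts, of any type, of protein-coding genes on these chromosomes. The starts of the latter are called protein-coding or coding transcript starts here. The rest of the list comprised 9060 peaks at protein-coding starts only, 1560 at both kinds of start and 47788 at neither. CHD4 was immunoprecipitated from 501Mel cells, an established melanoma line grown in RPMI 1640 medium, after fixation with paraformaldehyde. A single CHD4 ChIP library and a single input library of the same line make up the series, with no replicate, no CHD4-depleted control and no other condition. The labels name the NEXTflex kit for library preparation and the methods of the study name MicroPlex v2. The reporting summary of the study gives the reads of each library as a whole. The list carries no read counts, so the depth behind a single peak is unknown, and the sources do not state whether MACS2 used the input as control.

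CHD4 is the ATP-dependent chromatin remodeller of the nucleosome remodelling and deacetylase (NuRD) complex, which joins nucleosome sliding to histone deacetylation and is found at promoters and enhancers of active and silent genes. Long non-coding RNAs are transcribed by RNA polymerase II and often spliced, but are not translated into a known protein. Some act in nuclear bodies or on neighbouring genes, and others are the precursors of small nucleolar RNAs or microRNAs. Peaks away from protein-coding starts can be assigned to a lncRNA start without a coding promoter in the same window, although the window itself does not show that the lncRNA is transcribed in these cells.

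The starts of 6 lncRNAs with such a peak are shown as the annotated strand reads, from 250 bases before the start to 50 bases from it onwards. They were chosen because the peaks there lay on or beside the start of lncRNAs with a known role. Capitals mark letters that match, on either strand, one of 10 motifs: AP-1 (TGACTCA), the cAMP response element CRE (TGACGTCA), an E-box of the MITF type (TCACGTG or TCACATG), the GC box (GGGCGG), the ETS motif (CCGGAAG), the CCAAT box (CCAAT), YY1 (AAGATGGCG), the TATA box (TATAAA), CTCF and NRF1. A match is a run of letters in the reference and was not tested as a bound site. The sequences are those of GRCh37.
SAMMSON (chr3:70048451-70048750, plus strand): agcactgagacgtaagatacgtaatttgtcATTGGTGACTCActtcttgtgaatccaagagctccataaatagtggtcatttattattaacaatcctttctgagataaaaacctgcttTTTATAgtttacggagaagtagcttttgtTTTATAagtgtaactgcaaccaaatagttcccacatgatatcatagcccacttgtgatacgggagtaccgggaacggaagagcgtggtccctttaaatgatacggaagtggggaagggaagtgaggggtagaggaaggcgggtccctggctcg
DIRC3 (chr2:218621267-218621566, minus strand): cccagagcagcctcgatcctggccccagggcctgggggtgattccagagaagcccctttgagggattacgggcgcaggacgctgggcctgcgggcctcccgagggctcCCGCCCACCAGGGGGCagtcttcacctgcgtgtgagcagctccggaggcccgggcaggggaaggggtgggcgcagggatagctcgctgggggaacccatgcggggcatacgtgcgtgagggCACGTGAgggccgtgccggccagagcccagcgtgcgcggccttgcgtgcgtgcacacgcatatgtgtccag
MALAT1 (chr11:65264861-65265160, plus strand): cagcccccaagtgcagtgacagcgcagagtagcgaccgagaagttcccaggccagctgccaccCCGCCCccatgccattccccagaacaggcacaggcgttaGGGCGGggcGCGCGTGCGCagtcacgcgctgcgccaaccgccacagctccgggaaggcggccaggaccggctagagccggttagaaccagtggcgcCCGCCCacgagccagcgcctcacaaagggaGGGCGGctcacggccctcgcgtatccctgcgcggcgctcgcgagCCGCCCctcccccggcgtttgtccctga
NEAT1 (chr11:65189995-65190294, plus strand): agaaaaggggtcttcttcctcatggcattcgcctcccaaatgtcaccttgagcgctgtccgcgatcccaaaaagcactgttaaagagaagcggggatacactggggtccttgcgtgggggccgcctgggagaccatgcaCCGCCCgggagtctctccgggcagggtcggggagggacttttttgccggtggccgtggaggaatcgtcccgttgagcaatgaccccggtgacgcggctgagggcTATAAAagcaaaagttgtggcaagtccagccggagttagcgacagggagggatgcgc
NORAD (chr20:34638891-34639190, minus strand): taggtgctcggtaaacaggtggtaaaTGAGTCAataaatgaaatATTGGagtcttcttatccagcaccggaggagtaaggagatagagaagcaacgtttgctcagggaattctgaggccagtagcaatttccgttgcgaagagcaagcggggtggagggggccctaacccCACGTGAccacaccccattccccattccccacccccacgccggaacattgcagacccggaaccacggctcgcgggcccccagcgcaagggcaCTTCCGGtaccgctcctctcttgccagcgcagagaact
LINC00461 (chr5:87986825-87987124, minus strand): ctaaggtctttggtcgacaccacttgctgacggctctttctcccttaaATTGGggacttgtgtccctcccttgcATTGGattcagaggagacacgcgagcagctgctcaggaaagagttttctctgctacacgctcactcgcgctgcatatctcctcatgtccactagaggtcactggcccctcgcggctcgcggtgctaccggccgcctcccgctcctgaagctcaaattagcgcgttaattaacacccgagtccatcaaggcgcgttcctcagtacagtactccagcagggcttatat

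The window of *SAMMSON* held an AP-1 match 215 bp before the start, and that of *NORAD* one 224 bp before it. In *DIRC3* the CTCF match began 138 bp before the start and overlapped a GC box, and an E-box match lay 21 bp before the start. *MALAT1* had 5 GC boxes and the NRF1 match of the set, whereas *LINC00461* matched the CCAAT box only. *NEAT1* had a TATA match 7 bp before the annotated start.

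The middle 300 bases of the strong peak at *LINC02882* are shown as an example of an AT-rich peak, with an AP-1 match near the middle. The strand is that of the lncRNA, and capitals mark motif matches as above.
LINC02882 (chr12:74796054-74796353, minus strand): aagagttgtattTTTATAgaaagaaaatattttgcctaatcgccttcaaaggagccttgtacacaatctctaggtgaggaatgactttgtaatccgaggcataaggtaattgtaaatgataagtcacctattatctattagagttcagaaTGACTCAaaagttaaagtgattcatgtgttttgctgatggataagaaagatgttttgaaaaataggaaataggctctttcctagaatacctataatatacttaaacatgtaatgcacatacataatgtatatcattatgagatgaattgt

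The enrichment at lncRNA-only peaks was modest and close to that at protein-coding starts. The authors' peak caller gave them a median fold enrichment over background of 3.19 (95% interval of the median 3.16 to 3.22). It was 3.19 at peaks at protein-coding starts only, 3.22 at peaks at both kinds of start and 3.06 at peaks at neither. Among the lncRNA-only peaks the fold enrichment ran from 1.52 to 5.68, with 90% of them between 2.63 and 4.12. Intervals here and below cover counting error only, since neighbouring peaks and genes are not replicates and no spread between libraries can be given.

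A −log10 q of at least 2, which corresponds to a q of at most 0.01, was given for 979 lncRNA-only peaks, or 57.9% (55.5% to 60.2%). The share over the whole list was 48.5%. The lowest −log10 q was 1.02 among lncRNA-only peaks and 1.004 over the whole list. The reporting summary of the study gives a q setting of 0.01 together with the option for broad peaks, and names no separate limit for the broad regions. The deposited list of broad regions also holds some with a q above 0.01. Peaks at protein-coding starts only reached 56.7%, those at both kinds of start 59.6% and those at neither 46.2%. By this share, lncRNA-only peaks were closer to the other peaks at gene starts than to the peaks away from starts. The classes also differed in peak length, on which the rule bears, and the part of length in this share was not tested.

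At the top of the range they did not stand out. A −log10 q of at least 5 was given for 42 lncRNA-only peaks (2.48%, interval 1.84% to 3.34%) against 2.23% of the whole list. A fold enrichment of at least 5 was given for 7 of them (0.414%, interval 0.201% to 0.852%) against 0.501% of the list. Peaks at protein-coding starts only passed these limits in 3.83% and 0.960% of cases. The highest −log10 q among the lncRNA-only peaks was 9.90, at ENSG00000261978, whereas peaks at protein-coding starts reached 43.7 and peaks at neither kind of start 61.4.

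**Figure D1:**
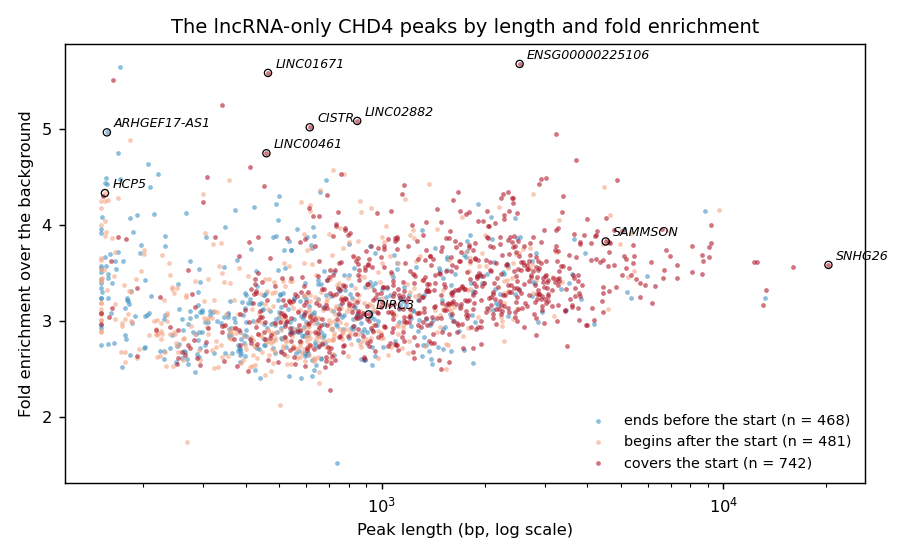
Fold enrichment of the 1691 lncRNA-only CHD4 peaks (y axis, ratio of ChIP over background) against peak length (x axis, bp, log scale), 1 point a peak, coloured by whether the peak covers the nearest lncRNA start (742), ends before it (468) or begins after it (481), with named peaks ringed. The peaks with the highest fold enrichment include both short and broad regions, and the longest peak, at SNHG26, has a fold enrichment of 3.59.

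The 12 lncRNA-only peaks of highest fold enrichment lay at lncRNAs of which most have no symbol of their own. The same held for 9988 of the 13749 lncRNA starts whose window touched no coding window. ENSG00000225106, transcribed antisense inside the cadherin gene *CDH4*, had the highest value, 5.68, over 2533 bp at chr20:60328883-60331415 (−log10 q 9.53), and the peak covered its start. At ENSG00000267898, the nearest protein-coding transcript start being that of the ferritin light chain gene *FTL* 1590 bp away, a 171-bp peak at chr19:49466806-49466976 ended 256 bp before the start with a fold enrichment of 5.65. At *LINC01671* a 465-bp peak at chr21:44035094-44035558 covered the start with a fold enrichment of 5.59. The fourth was a 164-bp peak at ENSG00000271751, with 5.52.

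Next came ENSG00000261218 (chr16:81771673-81772013, 341 bp), where the peak with a fold enrichment of 5.25 also lay in the window of ENSG00000289733. *LINC02882* followed with 5.09 at chr12:74795780-74796627, 134988 bp from the nearest protein-coding start. *CISTR*, a lncRNA described in cartilage development, had 5.02 at chr12:54150709-54151324. These 7 were the peaks above a fold enrichment of 5. Of them 6 covered the lncRNA start, the exception being ENSG00000267898.

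The remaining 5 had fold enrichments between 4.75 and 4.97. They were *ARHGEF17-AS1* (4.97, chr11:73020616-73020772), ENSG00000286383 (4.95, chr1:203963759-203967000), ENSG00000258283 (4.89, chr12:49389098-49389280), ENSG00000254458 (4.76, chr11:66079486-66079654) and *LINC00461* (4.75, chr5:87986771-87987230). Of the 12 peaks, none held a CTCF or CRE match within 250 bp of its centre. *LINC02882* held the AP-1 match of the set, ENSG00000225106 and ENSG00000258283 an E-box of the MITF type, and *ARHGEF17-AS1* and ENSG00000254458 a GC box.

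Lengths varied more than fold enrichments. The median lncRNA-only peak was 807 bp long (interval 761 to 858 bp), compared with 676 bp at protein-coding starts only, 708 bp at both kinds of start and 595 bp at neither. Peaks of at least 3000 bp made up 9.17% of them (155 peaks), compared with 3.75% at protein-coding starts only and 4.17% at neither. The median was 1243 bp when a q of at most 0.01 was required of lncRNA-only peaks. The rule bears on this comparison, since a long peak meets a lncRNA window more readily and is kept out by any coding window it meets. Peaks of at most 200 bp, of which there were 114, made up 6.74%, compared with 10.8% at neither kind of start.

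The longest region, at chr7:22876236-22896519, ran over 20284 bp and across the start of *SNHG26*, a host of small nucleolar RNAs, with a fold enrichment of 3.59. A region of 15945 bp on chromosome 1, at chr1:117026132-117042076, covered the starts of ENSG00000286276 and ENSG00000224950 (3.56). The others were at *LINC02199* (13279 bp, 3.32), *DUBR* (13186 bp, 3.24) and *RDUR* (13051 bp, 3.17). All but that of *DUBR*, which ended 968 bp before the start, covered the lncRNA start. A second and weaker peak of 471 bp, with a fold enrichment of 2.83, lay over the *DUBR* start itself.

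With respect to the nearest lncRNA start, 742 peaks (43.9%, interval 41.5% to 46.3%) covered it, 468 (27.7%) ended before it and 481 (28.4%) began after it. The numbers on the 2 sides were nearly equal. Peaks over the start had a higher median fold enrichment, 3.31 (3.28 to 3.34), than those before it (3.10, interval 3.06 to 3.16) or after it (3.07, interval 3.02 to 3.11). They were also longer, with a median of 1417 bp against 577 and 611 bp, and a longer peak is more likely to reach a given base. The centre lay within 500 bp of the start for 46.8% of peaks and more than 2000 bp away for 50 of them.

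A peak and a lncRNA did not always pair one to one. The 1691 peaks had 1583 different nearest lncRNA genes, and 214 peaks shared theirs with another lncRNA-only peak. At 73 lncRNA starts there was a peak on each side and none over the start. In the other direction, 122 peaks met the windows of 2 lncRNA starts and 5 met those of 3. Among the latter were the GC-rich peak at ENSG00000229912 (chr3:197182666-197184305, fold enrichment 3.83), the peak at *FAM86JP* and *LINC02614* (chr3:125635514-125636146, 3.05) and the AT-rich peak at *LINC02792* (chr1:79788492-79789985, 3.03).

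The 1000-bp limits cut through a continuum. Just inside the limit to protein-coding starts were the peaks at ENSG00000282041, 1008 bp from *HMOX1* (fold enrichment 2.95), and ENSG00000269915, 1009 bp from *EPS8L2* (4.19). Just outside were those at ENSG00000270426 (990 bp, 3.58) and ENSG00000261071 (987 bp, 3.03). On the lncRNA side, *LINC01798* and ENSG00000255446 were just inside, both 997 bp from the start (3.81 and 3.49), and *LINC00173* and ENSG00000230848 just outside, both at 1004 bp (2.92 and 2.76).

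Most lncRNA-only peaks lay outside protein-coding genes. The centre was outside any of them for 1235 peaks (73.0%, interval 70.9% to 75.1%), inside one transcribed antisense to the lncRNA for 328 (19.4%), inside one on the same strand for 117 (6.92%) and inside genes on both strands for 11. Only 62 centres (3.67%) fell in an exon of a protein-coding gene. The corresponding share of centres inside protein-coding genes was 53.8% over the whole list, but the exclusion of coding starts and the choice of lncRNA starts both act on it. Of the 13749 lncRNA starts whose window touched no coding window, 9670 lay outside protein-coding genes. A further 2851 lay antisense within one and 1136 on the same strand within one. In their position inside or outside coding genes the peaks were thus placed much like these starts. The nearest protein-coding transcript start was 20 to 100 kb away for 580 peaks and more than 100 kb away for 319 (18.9%), while 123 were closer than 2 kb. For the 13749 lncRNA starts, measured from the start, it was 20 to 100 kb away for 4822 and more than 100 kb away for 4002. The share beyond 100 kb was larger among these starts than among the peaks. By their definition these starts all lay more than 2 kb from a coding transcript start.

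Most of the nearest lncRNAs are known by an identifier alone, as are most lncRNAs away from coding starts. Of the 1691 peaks, 1128 (66.7%) were nearest to a lncRNA with no symbol of its own, 299 to a LINC-numbered gene and 132 to a gene named as an antisense transcript. A further 27 were nearest to a named host of small nucleolar RNAs or microRNAs and 9 to a divergent transcript. Among the 13749 lncRNA starts whose window touched no coding window, 9988 had no symbol, 2148 a LINC number and 821 an antisense name. Another 87 were named as hosts and 12 as divergent transcripts.

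To read these peaks against the starts on offer, the question was turned round, and each gene start was asked whether it had a peak within 1000 bp. Over all 18592 lncRNA starts, 1688 had a lncRNA-only peak, that is 9.08%. Of these starts, 13749 were separate from protein-coding promoters, their window not touching that of any coding transcript start. Among the separate starts 1617 had a peak, that is 11.8% (interval 11.2% to 12.3%). By contrast, 5401 of 16753 protein-coding gene starts away from lncRNA starts had one (32.2%, interval 31.5% to 33.0%), as did 375 of 9322 starts of processed pseudogenes (4.02%, interval 3.64% to 4.44%). By these shares separate lncRNA starts were intermediate between the other kinds, but the kinds were not filtered alike. Separate lncRNA and pseudogene starts lay clear of every coding transcript start, whereas coding gene starts could lie beside other coding transcript starts. The part of this in the coding share was not tested. Processed pseudogenes are copies of other transcripts, and the authors kept reads with a single best position. The part of this in the low share was not tested.

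The starts also differed in CpG content. A CpG-rich start had a GC content of at least 55% and an observed over expected CpG ratio of at least 0.65 in the 500 bp around it. This held for 7.61% of separate lncRNA starts and 49.2% of the coding ones. Among CpG-rich starts, 233 of 1046 lncRNA starts had a peak (22.3%, interval 19.9% to 24.9%) against 44.1% of coding starts and 11 of 338 pseudogene starts (3.25%). Among CpG-poor starts the shares were 10.9% (10.4% to 11.4%), 20.8% and 4.05%. Within either CpG class the lncRNA share remained below the coding share, with intervals that did not overlap. Whether the lncRNAs are transcribed in 501Mel cells is not measured by these libraries, and its part in the difference was not tested.

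The start of a lncRNA stood above its own surroundings. At the start base itself 5.71% of separate lncRNA starts were covered by a peak (785 of 13749, interval 5.33% to 6.11%), compared with 2.73% on average in the flanks from 4000 to 5000 bp away, a ratio of 2.09. At CpG-rich lncRNA starts the values were 9.46% and 3.11%, a ratio of 3.04, and at CpG-poor ones 5.40% and 2.70%, a ratio of 2.00. The flanks of both classes were close to each other and the starts further apart. Protein-coding starts had 12.9% at the start and 2.99% in the flanks, and processed pseudogenes 1.34% and 2.04%.

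**Figure D2:**
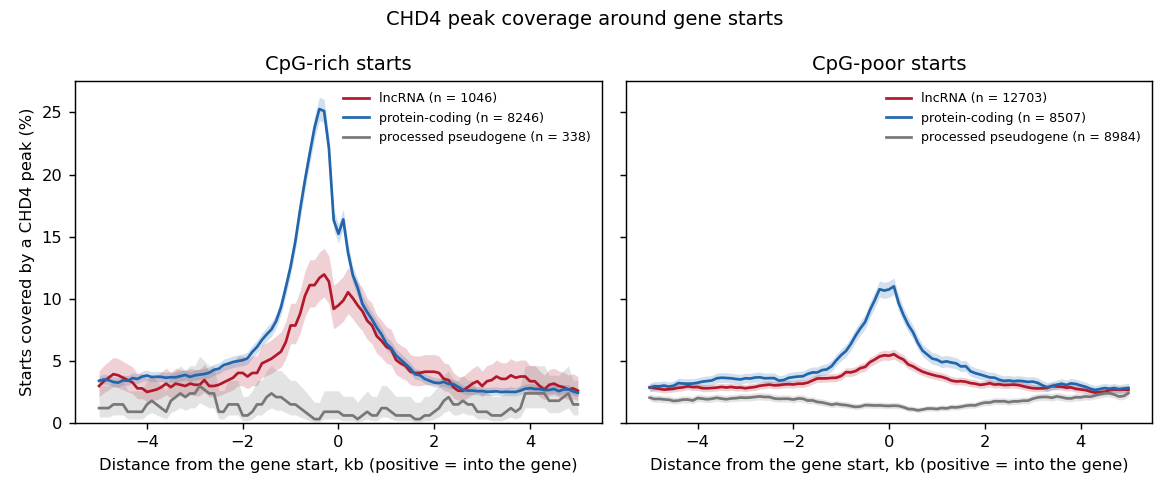
Share of gene starts covered by a CHD4 peak (y axis, %) by distance from the start in kb (x axis, positive into the gene), for CpG-rich starts (left) and CpG-poor starts (right) of separate lncRNA genes, protein-coding genes and processed pseudogenes, with Wilson 95% bands. At CpG-rich lncRNA starts coverage is highest 300 bp before the start, at 11.95%, and at CpG-poor lncRNA starts 100 bp after it, at 5.53%.

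The shape of the profile also differed with CpG content. At CpG-rich lncRNA starts the coverage was highest 300 bp before the start (11.95%) and lower at the start (9.46%), although their intervals overlapped. Protein-coding CpG-rich starts had the same shape more sharply, with 25.3% at 400 bp before the start and 15.2% at it. CpG-poor starts of both kinds had their highest value 100 bp after the start, at 5.53% for lncRNAs and 10.99% for protein-coding genes, but the values at the start itself, 5.40% and 10.7%, were close to these and the intervals overlapped. Of the lncRNA starts with a peak in the window, the start base was covered in 42.5% of CpG-rich cases (99 of 233, interval 36.3% to 48.9%) and 49.6% of CpG-poor ones (686 of 1384, interval 46.9% to 52.2%). For protein-coding starts these shares were 34.5% and 51.7%.

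Starts nearer to protein-coding genes more often had a peak. The share among separate lncRNA starts was 14.9% at 2 to 5 kb from the nearest coding transcript start, 14.3% at 5 to 20 kb, 12.2% at 20 to 100 kb and 7.85% beyond 100 kb (interval 7.05% to 8.72%). The fall was larger for CpG-rich starts. Of these, 36 of 116 (31.0%, interval 23.3% to 39.9%) had a peak at 2 to 5 kb, 96 of 316 (30.4%) at 5 to 20 kb, 87 of 426 (20.4%) at 20 to 100 kb and 14 of 188 (7.45%, interval 4.49% to 12.1%) beyond 100 kb. At that distance CpG-rich and CpG-poor lncRNA starts, with 7.45% and 7.87%, had nearly the same share. Processed pseudogene starts also fell with distance, from 8.01% to 1.96%.

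**Figure D3:**
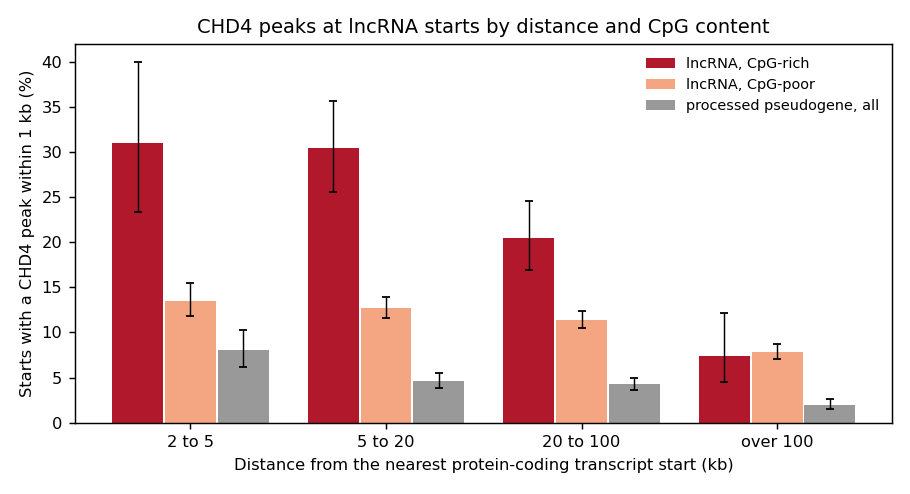
Share of separate lncRNA starts with a CHD4 peak within 1 kb (y axis, %) by distance from the nearest protein-coding transcript start (x axis, kb), for CpG-rich and CpG-poor starts, beside processed pseudogene starts, with Wilson 95% intervals as bars. CpG-rich lncRNA starts fall from 31.0% at 2 to 5 kb to 7.45% beyond 100 kb, where they meet the CpG-poor starts at 7.87%.

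Differences by location and kind of lncRNA were smaller. Separate starts outside protein-coding genes had a peak in 12.4% of cases (1197 of 9670), those antisense within one in 10.7% (305 of 2851) and those on the same strand within one in 9.07% (103 of 1136, interval 7.53% to 10.9%). LINC-numbered and antisense-named genes had nearly equal shares, 14.1% and 14.0%, and genes without a symbol 10.7%. The share was 13.9% for lncRNAs whose canonical transcript has a single exon, 11.2% for those with 2 exons and 11.5% for those with 3 or more.

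Hosts of small RNAs had the highest share of the groups by name. Of 87 separate starts named as hosts of small nucleolar RNAs or microRNAs, 27 had a peak (31.0%, interval 22.3% to 41.4%). CpG-rich starts made up 34.5% of them. By the host tag of the annotation, 85 of 501 hosts had a peak (16.97%, interval 13.9% to 20.5%) against 11.6% of the other separate starts. Within CpG-rich starts the shares were 31.1% (37 of 119, interval 23.5% to 39.9%) for hosts and 21.1% (18.6% to 23.9%) for the others, with overlapping intervals, and within CpG-poor starts 12.6% and 10.8%, also overlapping.

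The share with a peak varied between chromosomes. It was highest on chromosome 6, with 131 of 698 separate starts (18.8%, interval 16.05% to 21.8%), followed by chromosomes 22 (17.2%), 17 (16.9%) and 1 (15.1%). It was lowest on chromosome X, with 11 of 272 (4.04%, interval 2.27% to 7.10%), and on chromosome 18 (6.21%). The density of peaks of every class also differs between chromosomes, and lncRNA-only peaks made up 2.75% of the 4696 peaks on chromosome 6, 3.95% of the 1368 on chromosome 22, 4.11% of the 2750 on chromosome 17, 2.47% of the 6935 on chromosome 1, 1.61% of the 747 on chromosome X and 4.08% of the 735 on chromosome 18. Chromosome copy number in 501Mel cells was not analysed here, and its part was not tested.

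Named lncRNAs were followed in 3 lists. Of 22 lncRNAs linked to melanoma that were found in the annotation, 5 had a lncRNA-only peak (22.7%, interval 10.1% to 43.4%). Of 71 well-known lncRNAs 11 had one (15.5%, interval 8.88% to 25.7%), and of 114 hosts of small RNAs 28 (24.6%, interval 17.6% to 33.2%). The share over all lncRNA starts, 9.08%, lay below the interval of the hosts, inside that of the well-known lncRNAs and just below that of the melanoma lncRNAs. The lists were chosen with earlier results of these data known, so their shares are descriptions only and show no enrichment. They also differed in make-up, with 16 of 22 melanoma, 41 of 71 well-known and 89 of 114 host starts being separate. Listed genes also had more CpG-rich starts, with 12.5%, 24.4% and 34.8% of the separate starts in the order of the lists against 7.61% of all separate starts.

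Among the melanoma lncRNAs, *SAMMSON*, a melanocyte-lineage transcript whose gene neighbours *MITF* and which is needed for mitochondrial function in melanoma cells, lay under a broad peak of 4524 bp at chr3:70046440-70050963. The peak reached from −2261 to 2262 bp relative to the start, and its fold enrichment was 3.83 (−log10 q 3.87). By fold enrichment it ranked 195 of the 1691. The nearest protein-coding transcript start, of *MITF*, was 60460 bp from the peak.

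*LINC00518*, a transcript overexpressed in melanoma and used in its diagnosis, shared its peak with *MIR5689HG*. This peak of 4211 bp at chr6:10433268-10437478 covered the start with a fold enrichment of 3.89, and the nearest coding start was that of *TFAP2A*, a neural crest transcription factor, 13376 bp away. *DIRC3*, which lies in a tumour-suppressor region near *IGFBP5*, had a weaker peak of 916 bp over the start at chr2:218620725-218621640, where the fold enrichment was 3.07 and the q above 0.01 (−log10 q 1.87). *LINC01291* (3.40) was covered at the start as well, and at *LINC00520* the peak (2.99) ended 215 bp before it. Another 16 of the 22, among them *BANCR*, *CASC15*, *MIR31HG* and *HOTAIR*, had no peak within 1000 bp of the start, and at *SPRY4-AS1* the peak also met a protein-coding start.

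*MALAT1* and *NEAT1*, the abundant RNAs of nuclear speckles and paraspeckles, lie next to each other on chromosome 11 and shared a pattern of peaks beside the start. At *NEAT1* a peak of 4665 bp at chr11:65185483-65190147 ended 98 bp before the start (fold enrichment 3.81). At *MALAT1* a peak at chr11:65263402-65264869 (3.55) ended 242 bp before the start and another at chr11:65265521-65266414 (3.56) began 410 bp after it, so that the GC-rich stretch printed above was left mostly uncovered. All 6 peaks within 10 kb of the *MALAT1* start were lncRNA-only, since the region holds further lncRNA starts, among them *LINC02736* and the antisense *TALAM1* (3.79). This region therefore contributes several of the 1691 peaks. *NORAD*, which binds Pumilio proteins and guards genome stability, likewise had its peak of 1341 bp just before the start, ending 69 bp from it at chr20:34639009-34640349 (3.64).

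**Figure D4:**
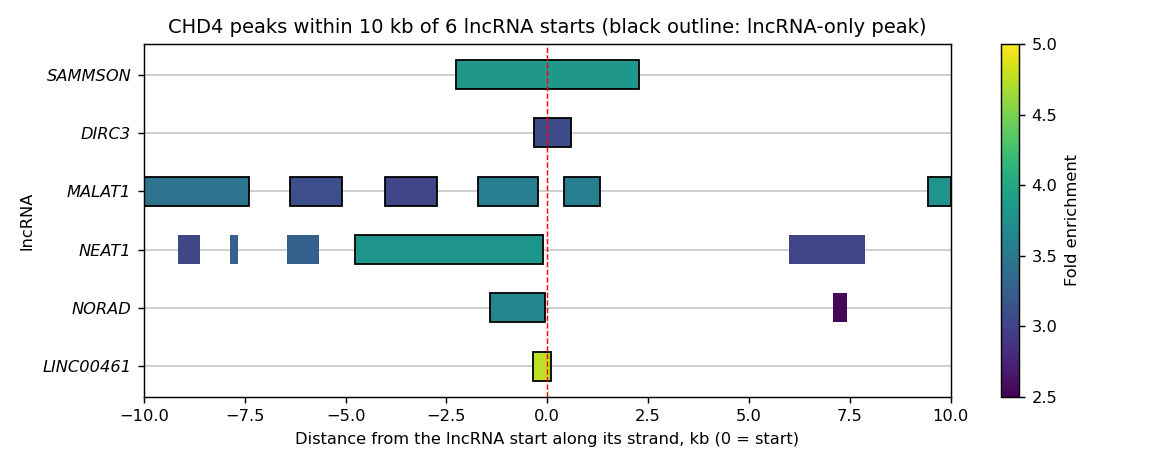
CHD4 peaks within 10 kb of the starts of SAMMSON, DIRC3, MALAT1, NEAT1, NORAD and LINC00461, drawn to scale by distance from the start along the strand of the lncRNA (x axis, kb), with the colour giving fold enrichment and a black outline marking lncRNA-only peaks. Peaks cover the start at SAMMSON, DIRC3 and LINC00461, end before it at NEAT1 and NORAD, and lie on both sides of it at MALAT1.

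*LINC00461*, a neural lncRNA whose locus hosts a copy of miR-9, had the highest fold enrichment of the listed genes, 4.75 over 460 bp, and 8 peaks of any class along its body. *HCP5*, in the HLA class I region, followed with 4.34 in a 155-bp peak that began 17 bp after the start. HLA class I genes have close relatives in this region, and whether reads were shared with them was not tested. The peak of *CCDC26* (8088 bp, 3.78) covered the start, whereas that of *PVT1*, next to *MYC*, was short and weak (226 bp, 2.98) and began 512 bp after it. *PCAT6* (2.93) and *LINC00973* (2.77) were covered at the start, and at *JPX* (3.11) and *LINC01194* (2.95) the peak ended 88 and 240 bp before it.

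Among the hosts of small RNAs the strongest peak was that of *MIR23AHG*, host of the miR-23a, miR-27a and miR-24 cluster, where a region of 8814 bp at chr19:13953874-13962687 ended 132 bp before the start with a fold enrichment of 4.15. *MIR762HG*, antisense within *BCL7C*, followed with 4.04 in a 155-bp peak, then *MIR5689HG* (3.89, the peak shared with *LINC00518*), *MIR924HG* (3.88), *MIR3142HG* (3.83) and *SNHG6* (3.74). *MIR200CHG*, host of epithelial miR-200c and miR-141, had 3.64 in a peak ending 622 bp before its start. *MIR193BHG* (3.54), *SNHG20* (3.38), *MIR9-1HG* (3.38) and *SNHG15* (3.31) were covered at the start. At *SNHG25* peaks of 3.43 and 3.02 lay on either side, and at *MIR497HG* the peak (3.40) ended 259 bp before the start. The lowest value in the lists was 2.47, at *SNHG18*. *MIR17HG*, host of the miR-17 to miR-92 cluster, had 2.99.

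Sequence around the peak centres placed lncRNA-only peaks between promoters and distal sites. Their median GC content in the 500 bp around the centre was 47.4% (interval 46.8% to 47.8%), compared with 51.4% at protein-coding starts only, 55% at both and 42.2% at neither. A CpG-rich centre was found in 109 of them (6.45%, interval 5.37% to 7.72%), compared with 16.95%, 31.3% and 0.544%. CpG-rich and CpG-poor lncRNA-only peaks had median lengths of 818 and 807 bp and median fold enrichments of 3.33 (3.19 to 3.38) and 3.18 (3.15 to 3.21).

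Of the motifs common at CpG-rich promoters, the GC box, ETS and NRF1 followed the same order and YY1 did not. A GC box lay within 250 bp of the centre in 20.8% of lncRNA-only peaks (interval 18.9% to 22.8%), compared with 35.6% at protein-coding starts only, 51.7% at both, 7.67% at neither and 13.4% over the whole list. The ETS motif was found in 4.85% against 7.56%, 11.8%, 1.69% and 2.93%. NRF1, a factor of housekeeping promoters, matched in 0.710% against 2.97%, 4.87%, 0.109% and 0.681%. YY1 matched in 2 lncRNA-only peaks (0.118%, interval 0.0324% to 0.430%) against 1.04% at protein-coding starts only, 1.15% at both, 0.144% at neither and 0.305% of the list. When only CpG-rich centres were compared, the GC box reached 80.7% in lncRNA-only peaks and 83.9% at protein-coding starts, with overlapping intervals. At CpG-poor centres, which 1582 of the 1691 peaks had, it was found in 16.7% (14.9% to 18.6%) and 25.7% (24.8% to 26.7%), and the intervals did not overlap.

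Motifs of distal elements followed another order. AP-1 matched in 11.5% of lncRNA-only peaks (interval 10.1% to 13.1%), close to the 11.3% at neither kind of start and the 10.8% of the whole list, and above the 8.59% at protein-coding starts only and the 6.67% at both. The MITF-type E-box matched in 15.1% (13.5% to 16.9%) against 16.9%, 12.3% and 11.0% in the same order of classes, and 16.002% of the list. CTCF, which organises chromatin loops, matched in 36 lncRNA-only peaks (2.13%, interval 1.54% to 2.93%) against 1.503% at neither, 1.39% at protein-coding starts only, 1.09% at both and 1.49% of the list. CRE matched in 0.769% against 0.579% of the list, the CCAAT box in 49.3% against 50.3% and the TATA box in 26.2% against 33.5%. Among lncRNA-only peaks of at most 200 bp, CTCF matched in 6 of 114 (5.26%, interval 2.43% to 11.0%), and among longer ones in 30 of 1577 (1.90%, interval 1.34% to 2.70%).

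**Figure D5:**
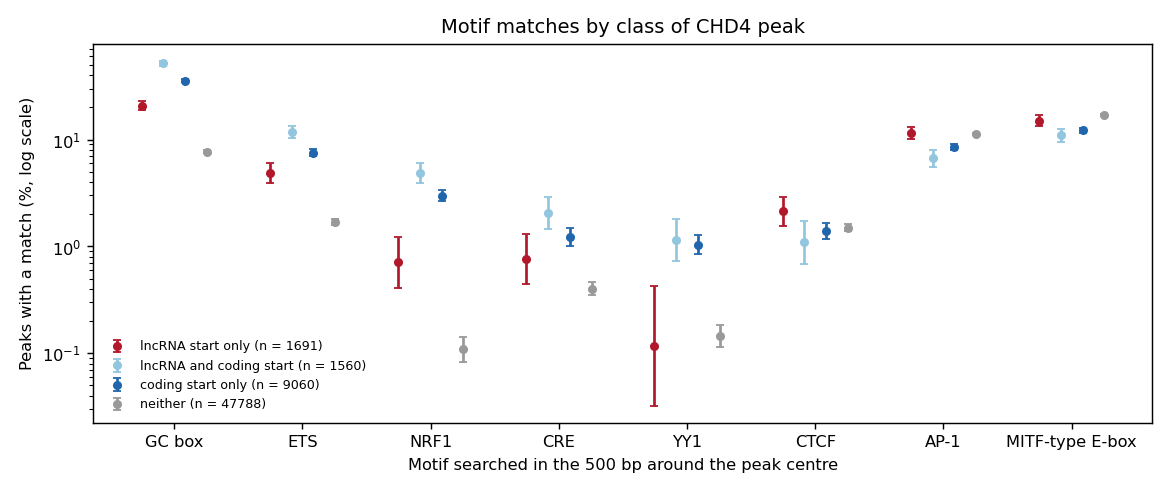
Share of CHD4 peaks with a motif match within 250 bp of the peak centre (y axis, %, log scale) for 8 motifs (x axis) in the 4 classes of peak, with Wilson 95% intervals as bars. The lncRNA-only peaks lie between the other classes for the GC box and ETS and near the peaks at neither kind of start for AP-1.

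The same motifs were then counted around the separate lncRNA starts themselves, with and without a peak. CTCF matched within 250 bp of 28 of the 1617 starts with a peak (1.73%, interval 1.201% to 2.49%) and of 73 of the 12132 without (0.602%, interval 0.479% to 0.756%), against 0.735% of all separate starts. The difference lay among CpG-poor starts, with 1.81% against 0.521%, while CpG-rich ones had 3 of 233 with a peak and 14 of 813 without. AP-1 matched at 14.0% of starts with a peak (12.4% to 15.8%) and 10.2% of those without (9.63% to 10.7%), and at 10.6% of all. It was more common with a peak in both CpG classes, at 6.01% against 2.21% of CpG-rich starts and 15.3% against 10.7% of CpG-poor ones.

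The E-box of the MITF type matched at 14.2% of lncRNA starts with a peak and 11.1% of those without (11.4% of all), and among CpG-rich starts at 12.02% (8.45% to 16.8%) and 6.77% (5.23% to 8.70%). CRE matched at 1.79% against 0.536% (0.684% of all). Among CpG-rich starts the values were 4.72% (2.66% to 8.25%) and 2.95% (1.99% to 4.35%), with overlapping intervals. Among CpG-poor starts they were 1.30% (0.824% to 2.05%) and 0.362% (0.267% to 0.491%). The GC box matched at 30.1% against 16.8% (18.4% of all) and remained more common with a peak among CpG-rich starts (90.1% against 78.1%) and CpG-poor ones (19.9% against 12.4%). The ETS motif, with 7.42% against 3.95% (4.36% of all), did so among CpG-poor starts, at 5.35% against 2.89%, but had 19.7% and 18.7% among CpG-rich ones. The TATA box had 23.4% with a peak and 28.5% without (27.9% of all). Among CpG-poor starts the values were 26.2% and 30.3%, and among CpG-rich starts 6.87% (4.27% to 10.9%) and 4.67% (3.42% to 6.35%), with overlapping intervals.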

How the data were processed

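CHD4 ChIP-seq was carried out by the authors in 501Mel cells with 1 ChIP and 1 input library. Per the methods of the study, single reads were mapped to hg19 with Bowtie, keeping reads with a single best position, and broad peaks were called with MACS2. The submitters' processing notes give versions 1.0.0 and 2.1.1.20160309, and the reporting summary of the study names another Bowtie version. The deposited list holds 60126 peaks, of which 27 outside chromosomes 1 to 22 and X were left out. For each peak it gives the authors' score (the −log10 q times 10, without decimals, in 60124 peaks), the fold enrichment over the background (a ratio), and the −log10 of the p-value and of the q-value. These are values per broad region, so long regions are averaged.

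Peak starts were counted from 1 and an overlap of 1 bp counted. Sequence and annotation were GRCh37 and GENCODE release 44 mapped to it, not the annotation used by the authors. Shares carry Wilson 95% intervals and medians order-statistic 95% intervals. No test was made, because there is 1 library of each kind. The counting was tested on simulated peaks. The class of peaks and the gene lists were chosen with earlier results of these data known. Named lncRNAs were the 12 lncRNA-only peaks of highest fold enrichment, the 5 longest, 3 with most lncRNA starts, the pairs nearest each distance limit on either side, and listed lncRNAs, the 20 strongest in full; other genes are named for position only, apart from ENSG00000261978 and the *MALAT1* neighbours, which were chosen after their values were seen. Alternatives changed window width, start definition, q threshold, merging and required overlap. Software comprised samtools 1.23.1, matplotlib 3.10.9, pandas 2.3.3, Python 3.11.15, pysam 0.24.0, numpy 2.4.6 and scipy 1.17.1.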

Additional observations from a re-analysis of the deposited data

How the results depend on the processing

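No paired analysis was possible because the ChIP and the input have a single library each and no result comes from a test. The number of lncRNA-only peaks, 1691, was 979 at a −log10 q of 2 or more, 42 at 5 or more, 590 with only lncRNAs that have a symbol and 742 where the peak had to cover the start, all by construction. In the order of 500-bp windows, 2000-bp windows, −log10 q of at least 2 and of at least 5, peaks merged within 1000 bp and start covered, the median fold enrichment (3.19) became 3.23, 3.15, 3.46, 4.49, 3.25 and 3.31. In the same order, the share with a −log10 q of at least 2 (57.9%) became 61.7%, 54.9%, 100%, 100%, 62.1% and 71.8%. The share with a CpG-rich centre (6.45%) became 8.29% and 5.07% with the narrower and wider windows, 7.97% and 11.9% with the stricter q values, 8.78% when only gene starts kept coding peaks out and 9.16% with the start covered. The share centred in protein-coding genes (26.97%) became 23.8% with every lncRNA transcript start, 19.05% with a −log10 q of at least 5, 38.7% with coding gene starts only and 18.3% with lncRNAs that have a symbol. The share of separate lncRNA starts with a peak (11.8%) became 9.64% and 14.7% with the other windows, 13.8% with every transcript start, 7.31% and 0.298% with the stricter q values, 12.5% with coding gene starts only, 14.5% with lncRNAs that have a symbol and 5.71% with the start covered. The share covered at the start base (5.71%) became 6.65% with every transcript start, 4.16% and 0.189% with the stricter q values, 6.18% with merged peaks and 7.34% with lncRNAs that have a symbol. Where the alternative does not bring the shift about itself, the cause was not tested. The median length (807 bp) became 889 bp, 730.5 bp, 1243 bp, 1047 bp and 1416.5 bp with 500-bp windows, 2000-bp windows, a −log10 q of at least 2, merged peaks and the start covered. The other counts of lncRNA-only peaks stayed within 1.5 times the main one, at 1375 and 2286 with the narrower and wider windows, 2245 with every transcript start, 1547 with merged peaks and 2015 with coding gene starts only. By that limit for counts, and by the 95% interval for medians and shares, 45 values moved and 33 did not. The list carries no counts, so a missing peak cannot be told apart from too few reads, and with 1 ChIP library no value can be set against the spread between cultures.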

Other observations

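Some lncRNAs with a lncRNA-only peak at the start carried many CHD4 peaks along their body. A lncRNA-only peak that overlapped the gene was itself counted, and one that ended before the start was not. *CCDC26* had 57 peaks of any class over its 1049572 bp, *DIRC3* 24 over 472575 bp, *PVT1* 14 over 392576 bp and *SAMMSON* 11 over 518515 bp. *SNHG16*, the shortest of these genes, had 25 over 113259 bp. Of the 1691 lncRNA-only peaks, 599 (35.4%, interval 33.2% to 37.7%) were nearest to a lncRNA with at least 2 peaks along its body. No such share over all lncRNA genes is given here. More peaks meet a longer gene, and the part of gene length was not tested, so the counts are given as values only.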
